A study of Mus musculus with 12 samples.

Results

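Glucocorticoid-responsive genes were followed in hearts of male C57Bl/6J mice, 12 weeks old, through 9 genes chosen by name: the receptor genes Nr3c1 and Nr3c2 and the responsive genes Tsc22d3, Fkbp5, Zbtb16, Sgk1, Mt1, Mt2 and Errfi1. All 9 were found among the 15089 genes that stand in all 4 tables of the series, and all 9 passed the filter on low values in every comparison. PolyA RNA from 12 heart samples was sequenced, 3 samples in each of 4 groups. BCAA-free TAC hearts came from mice fed a diet without branched-chain amino acids (BCAA, which are leucine, isoleucine and valine) and operated by transverse aortic constriction (TAC), which narrows the aorta and raises the load on the left ventricle. Control diet TAC hearts had the same operation and a diet with every essential amino acid. BCAA-free sham and control diet sham hearts had the same 2 diets with sham surgery. In every group the diet was given from 4 days before surgery up to collection 2 weeks after it. Nothing in the labels tells if hearts were pooled, if the samples of a group are separate mice, or when in the day they were collected, so a p-value here reflects the spread between samples, which may be technical.

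Glucocorticoids cross the cell membrane and bind the glucocorticoid receptor, which is encoded by Nr3c1 and is held in the cytoplasm by heat shock proteins. The bound receptor moves to the nucleus and switches on genes near its response elements. The mineralocorticoid receptor, encoded by Nr3c2, binds the same hormones, and in cardiomyocytes, where the enzyme that inactivates glucocorticoids is scarce, it is occupied largely by them. Secretion of glucocorticoids follows a daily rhythm and rises with stress and fasting.

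Levels are given as CPM, the reads of a gene behind the deposited values scaled to a common library total over the 12 libraries by TMM. Log2 fold changes ± SE come from limma on the deposited normalized counts of the 6 libraries of a table, and a gene was called at a Benjamini-Hochberg adjusted p under 0.05, taking every gene of the table into the adjustment. Depth ranged from 13848953 reads in BCAA-free sham replicate 2 to 52059546 reads in control diet TAC replicate 3. Markers of cardiomyocytes summed to between 39759 and 68172 CPM, above each of the 9 other marker lists. Control diet sham replicate 3 held the highest level of its group for 6 of the 9 genes and for 16 of 24 other glucocorticoid-induced genes, while replicate 1 held the lowest level for 6 and 18 of them. BCAA-free TAC replicate 3 also held the highest level of its group for 6 of the 9, and for 11 of the 24. Since control diet sham replicate 3 held the highest level of all 12 libraries for 4 members, fold changes of the 9 genes against this group are given with and without it. Because that library was picked from the members' own levels, p-values without it do not account for the choice. Calls made without it are a description only. In bulk RNA, fewer cells of a type and less RNA per cell cannot be told apart.

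The 2 diets differed in 3 of the 9 genes after TAC. Nr3c1 was lower, and Tsc22d3 and Mt1 were higher, on the BCAA-free diet. In that comparison 34.2% of the 15872 genes tested were called, 16.5% higher and 17.7% lower, so 3 of 9 is near the background; without control diet TAC replicate 3 the count was 5. After sham surgery 1 of the 9 was called, Tsc22d3, higher on the BCAA-free diet, where 0.624% of 15217 genes were called and 0.25% were called higher. That count was 5 without control diet sham replicate 3, and 0 without control diet sham replicate 1 or any 1 of the BCAA-free sham libraries. Over all genes it was 95, and between 6 and 475 with 1 library left out. Which library gave which count over all genes is not given here. TAC against sham called 0 of the 9 on the BCAA-free diet, where 6.23% of genes were called, and 0 of the 9 on the control diet, where 4.04% were called. At an unadjusted p under 0.05 those counts of 0 became 4 and 2. By rank of p, at least 16.2% of all genes passed that threshold on the BCAA-free diet. On the control diet at least 13.7% did. With DESeq2 the counts of members became 2 and 2, and with edgeR on the 6 libraries they remained 0. The shares of all genes called by these tools are not given here. The interaction of diet and surgery, which asks whether TAC changed a gene differently on the 2 diets, also called 0 of the 9. There 8.65% of 15195 genes were called. Of the 9, 2 had an unadjusted p under 0.05, where by rank of p at least 20.5% of all genes did. With edgeR and DESeq2 the interaction called 0 of the 9. Without control diet sham replicate 3 the interaction called 2 and TAC on the control diet 1. Over all genes, leaving out 1 library gave 216 to 1733 calls for the interaction and 0 to 1061 for TAC on the control diet. For the diet after TAC it gave 3368 to 5271. The median log2 fold change of the 9 genes for the diet was 0.07 after TAC and 0.26 after sham surgery, and over all genes tested it was 0.00 in both.

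**Figure D1:**
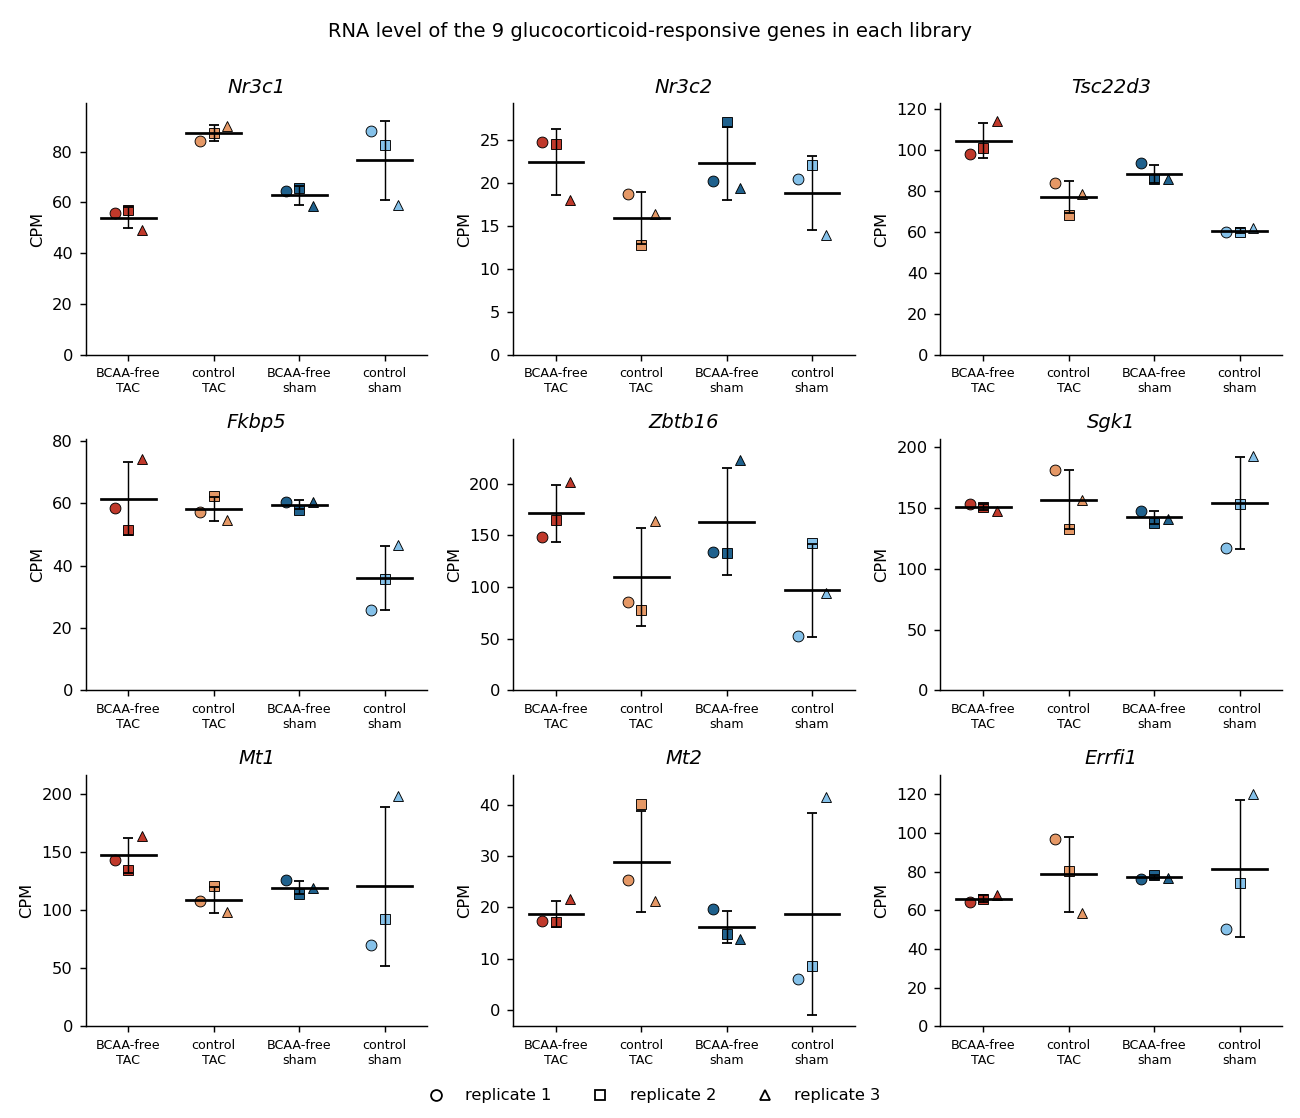
RNA level of each of the 9 genes in CPM (vertical axes, from 0 or just below) in the 12 libraries, by group; points are libraries, thick lines means, and bars SD (n = 3 each). Nr3c1 lies lower in all 3 BCAA-free TAC libraries than in the 3 control diet TAC libraries, and control diet sham replicate 3 holds the highest level of all 12 libraries for Sgk1, Mt1, Mt2 and Errfi1.

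The glucocorticoid receptor gene was the member with the smallest p in the diet comparison after TAC, at rank 181 of the 15872 genes. Nr3c1 (ENSMUSG00000024431, chromosome 18, 39410545 to 39519421, minus strand, GRCm38) had 55.9, 57.1 and 49.1 CPM in BCAA-free TAC hearts, against 84.3, 87.5 and 90.3 CPM in control diet TAC hearts. The groups did not overlap, and the BCAA-free libraries were all below the lowest control diet library. This gave a log2 fold change of -0.69 ± 0.08 (adjusted p = 0.00115). With trends over GC content and transcript length removed from each library it was -0.38 (adjusted p = 0.00598), a smaller fall that still passed. After sham surgery Nr3c1 had 64.4, 65.5 and 58.6 CPM in BCAA-free hearts and 88.2, 82.7 and 58.8 CPM in control diet hearts. Here the groups overlapped through control diet sham replicate 3 alone. It gave -0.26 ± 0.14 (adjusted p = 0.368), and -0.43 (adjusted p = 0.0245) without that library. The value was -0.16 without control diet sham replicate 1 (adjusted p = 0.667) and -0.21 without replicate 2 (adjusted p = 0.501).

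TAC against sham gave Nr3c1 log2 fold changes of opposite sign on the 2 diets, -0.22 ± 0.08 on the BCAA-free diet (adjusted p = 0.124) and 0.21 ± 0.14 on the control diet (adjusted p = 0.375). Neither passed, and nor did their difference, the interaction, at -0.43 ± 0.17 (adjusted p = 0.119). Without control diet sham replicate 3 the control diet value was 0.044 (adjusted p = 0.753) and the interaction -0.27 (adjusted p = 0.164). Once trends over GC content and length were removed, the BCAA-free value became 0.02 and the control diet value 0.065. The opposite signs therefore rest on that choice. Over the alternatives that kept every library, the interaction of Nr3c1 lay between -0.60 and -0.06 (adjusted p = 0.0508 to 0.794). Markers of 7 of the 10 cell type lists had calls in the same diet comparison after TAC. There 34.2% of all genes were called, 16.5% higher and 17.7% lower, so 1 or 2 calls in a list of 5 are near that share. All 5 macrophage markers were called lower, summing to between 86.7 and 107 CPM in BCAA-free TAC hearts and between 147 and 174 CPM in control diet TAC hearts. Of 5 fibroblast markers 4 were called lower, with sums of 521 to 616 CPM in BCAA-free TAC hearts and 799 to 1461 CPM in control diet TAC hearts. Of 5 cardiomyocyte markers 3 were called higher, with sums of 65568 to 67096 CPM in BCAA-free TAC hearts and 39759 to 51094 CPM in control diet TAC hearts. Of 5 endothelial markers 1 was called higher (Vwf, 0.66) and 2 lower (Cdh5, -0.48, and Pecam1, -0.31), with sums of 708 to 819 CPM in BCAA-free TAC hearts and 847 to 878 CPM in control diet TAC hearts. Of 4 atrial markers 2 were called higher, Sln (1.17) and Myl7 (1.26), while the sums overlapped, at 723 to 1736 CPM in BCAA-free TAC hearts and 940 to 3053 CPM in control diet TAC hearts. The smooth muscle and pericyte list had 1 of 5 called higher and 1 lower, with sums of 852 to 904 CPM in BCAA-free TAC hearts and 958 to 1067 CPM in control diet TAC hearts. The erythroid list had 1 of 5 called higher, with sums of 294 to 379 CPM in BCAA-free TAC hearts and 297 to 382 CPM in control diet TAC hearts. None of the 2 lymphocyte, 4 neutrophil and 4 adipocyte markers tested was called. The part of these cell types in the Nr3c1 difference was not tested.

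The mineralocorticoid receptor gene had values in the other direction. Nr3c2 (ENSMUSG00000031618, chromosome 8, 76899442 to 77245012, plus strand) was the least abundant of the 9 per length of exon, at 3.06 CPM per kb. It had 24.7, 24.5 and 18 CPM in BCAA-free TAC hearts and 18.7, 12.7 and 16.3 CPM in control diet TAC hearts. The groups overlapped through BCAA-free TAC replicate 3, and the log2 fold change of 0.50 ± 0.17 did not pass (adjusted p = 0.0523). It passed at 0.74 with GC content and length trends removed (adjusted p = 0.012), at 0.495 with DESeq2 (adjusted p = 0.0193), at 0.62 without control diet TAC replicate 1 (adjusted p = 0.0242) and at 0.65 without BCAA-free TAC replicate 3 (adjusted p = 0.0305). After sham surgery Nr3c2 had 20.2, 27.1 and 19.4 CPM in BCAA-free hearts and 20.4, 22 and 13.9 CPM in control diet hearts, which overlapped. The log2 fold change was 0.26 ± 0.18 (adjusted p = 0.507), and 0.067 without control diet sham replicate 3 (adjusted p = 0.857). TAC against sham gave 0.012 ± 0.16 on the BCAA-free diet (adjusted p = 0.977) and -0.23 ± 0.19 on the control diet (adjusted p = 0.462), or -0.41 without that library (adjusted p = 0.144).

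The balance between the 2 receptor genes was then taken as a ratio of reads within each library, which no scaling between libraries can alter. This ratio was chosen after the values had been seen and is given with no test. The Nr3c1 to Nr3c2 ratio was 2.27, 2.33 and 2.72 in BCAA-free TAC hearts and 4.51, 6.88 and 5.52 in control diet TAC hearts. In sham hearts it was 3.19, 2.42 and 3.02 on the BCAA-free diet and 4.33, 3.77 and 4.24 on the control diet. All 6 BCAA-free libraries lay below all 6 control diet libraries, control diet sham replicate 3 included. The mean ratio was 2.44 ± 0.247 in BCAA-free TAC hearts, 5.64 ± 1.19 in control diet TAC hearts, 2.88 ± 0.405 in BCAA-free sham hearts and 4.11 ± 0.299 in control diet sham hearts (SD, n = 3 each).

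**Figure D2:**
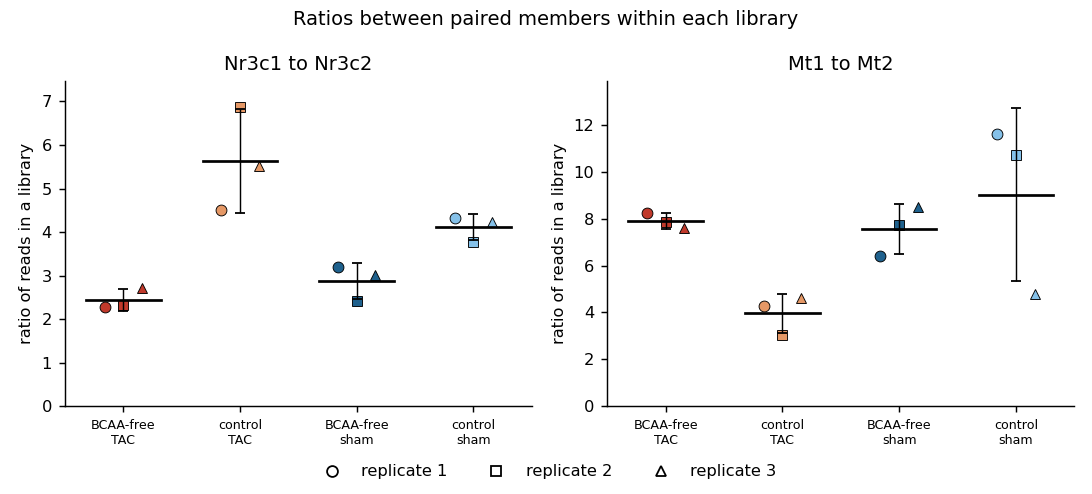
Ratio of Nr3c1 to Nr3c2 reads (left) and of Mt1 to Mt2 reads (right) within each library, by group; points are libraries, thick lines means and bars SD (n = 3 each). The receptor ratio is lower in the 6 BCAA-free libraries, 2.27 to 3.19, than in the 6 control diet libraries, 3.77 to 6.88, while the metallothionein ratio of control diet sham replicate 3 is 4.78 beside 11.6 and 10.7 in its group.

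Among the induced genes, Tsc22d3 differed between the diets after both operations. Tsc22d3 (ENSMUSG00000031431, chromosome X, 140539528 to 140600659, minus strand) encodes GILZ, a leucine zipper protein that carries part of the anti-inflammatory action of glucocorticoids. It had 98.1, 101 and 114 CPM in BCAA-free TAC hearts against 83.8, 68.2 and 78.5 CPM in control diet TAC hearts. In sham hearts it had 93.3, 85.5 and 85.9 CPM on the BCAA-free diet against 59.8, 59.6 and 62 CPM on the control diet. Neither pair of groups overlapped, and all 3 control diet sham libraries, replicate 3 included, were the lowest of the 12. Its log2 fold change was 0.44 ± 0.10 after TAC (adjusted p = 0.00959) and 0.54 ± 0.09 after sham surgery (adjusted p = 0.0332). The sham call was lost when any of 4 libraries was left out: adjusted p was 0.137 without control diet sham replicate 1, and 0.196, 0.174 and 0.0585 without BCAA-free sham replicates 1, 2 and 3, with log2 fold changes of 0.50 to 0.57. It was 0.575 without control diet sham replicate 3 (adjusted p = 0.00527).

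TAC against sham gave Tsc22d3 log2 fold changes of 0.24 ± 0.08 on the BCAA-free diet (adjusted p = 0.088) and 0.34 ± 0.11 on the control diet (adjusted p = 0.0875), with no overlap between TAC and sham libraries on either diet. Neither passed. On the control diet it did with scaling to library totals alone (0.49, adjusted p = 0.0274), DESeq2 (0.34, adjusted p = 0.049) and edgeR on all 12 libraries (0.35, adjusted p = 0.0194). The interaction was -0.10 ± 0.13 (adjusted p = 0.651). When control diet sham replicate 3 was left out, TAC on the control diet gave 0.37 (adjusted p = 0.0823) and the interaction -0.135 (adjusted p = 0.523). The mean level was ordered BCAA-free TAC at 104 ± 8.54 CPM, BCAA-free sham at 88.2 ± 4.4, control diet TAC at 76.8 ± 7.91 and control diet sham at 60.5 ± 1.31 CPM (SD, n = 3 each).

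Fkbp5 had its lowest levels in control diet sham hearts. Fkbp5 (ENSMUSG00000024222, chromosome 17, 28399094 to 28517527, minus strand) encodes FKBP51, a co-chaperone that lowers the hormone affinity of the glucocorticoid receptor and is itself induced by it. It had 58.6, 51.6 and 74.3 CPM in BCAA-free TAC hearts and 57.2, 62.4 and 54.8 CPM in control diet TAC hearts. After sham surgery it had 60.5, 57.8 and 60.3 CPM on the BCAA-free diet against 25.9, 35.7 and 46.6 CPM on the control diet. The 9 libraries of the other groups lay between 51.6 and 74.3 CPM, and control diet sham did not overlap with any of them. Yet neither comparison with it passed: the log2 fold change was 0.76 ± 0.18 for the diet after sham surgery (adjusted p = 0.0813) and 0.72 ± 0.19 for TAC on the control diet (adjusted p = 0.0626). Without control diet sham replicate 3 both passed, at 0.98 (adjusted p = 0.00361) and 0.94 (adjusted p = 0.0461). Both also passed with DESeq2 (adjusted p = 0.00548 and 0.014) and with edgeR on all 12 libraries (adjusted p = 0.0485 and 0.0153), and TAC on the control diet passed with library totals alone (0.87, adjusted p = 0.0284). Neither passed without control diet sham replicate 1, at 0.54 (adjusted p = 0.177) and 0.50 (adjusted p = 0.135), or with any of the remaining libraries left out. Nor did they with edgeR on the 6 libraries (adjusted p = 0.0923 and 0.0696) or with GC content and length trends removed (adjusted p = 0.0924 and 0.0684). The authors' deposited table gives an adjusted p of 0.00542 for the diet after sham surgery and 0.0143 for TAC on the control diet.

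Where control diet sham was not involved, the log2 fold changes of Fkbp5 were near 0. They were 0.07 ± 0.13 for the diet after TAC (adjusted p = 0.705) and 0.03 ± 0.11 for TAC against sham on the BCAA-free diet (adjusted p = 0.916). The interaction was -0.69 ± 0.25 and did not pass (adjusted p = 0.0957). It passed at -0.92 without control diet sham replicate 3 (adjusted p = 0.0199) and at -0.87 with scaling to library totals alone (adjusted p = 0.0345).

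Zbtb16 varied widely between libraries of the same group. Zbtb16 (ENSMUSG00000066687, chromosome 9, 48654297 to 48836222, minus strand) encodes PLZF, a zinc finger repressor that glucocorticoids induce strongly in many tissues. It had 148, 165 and 202 CPM in BCAA-free TAC and 86, 78.1 and 164 CPM in control diet TAC hearts. In sham hearts it had 134, 133 and 223 CPM on the BCAA-free diet and 53.1, 143 and 94.3 CPM on the control diet. The BCAA-free libraries were mostly higher, but each pair of groups overlapped. For the diet it was 0.72 ± 0.29 on the log2 scale after TAC (adjusted p = 0.103) and 0.82 ± 0.41 after sham surgery (adjusted p = 0.396). Without control diet TAC replicate 3, at 164 CPM, the diet difference after TAC was 1.06 and passed (adjusted p = 0.00544). TAC against sham gave 0.10 ± 0.24 on the BCAA-free diet (adjusted p = 0.842) and 0.20 ± 0.40 on the control diet (adjusted p = 0.776). With control diet sham replicate 3 left out, the diet after sham surgery gave 0.87 (adjusted p = 0.557) and TAC on the control diet 0.255 (adjusted p = 0.792).

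**Figure D3:**
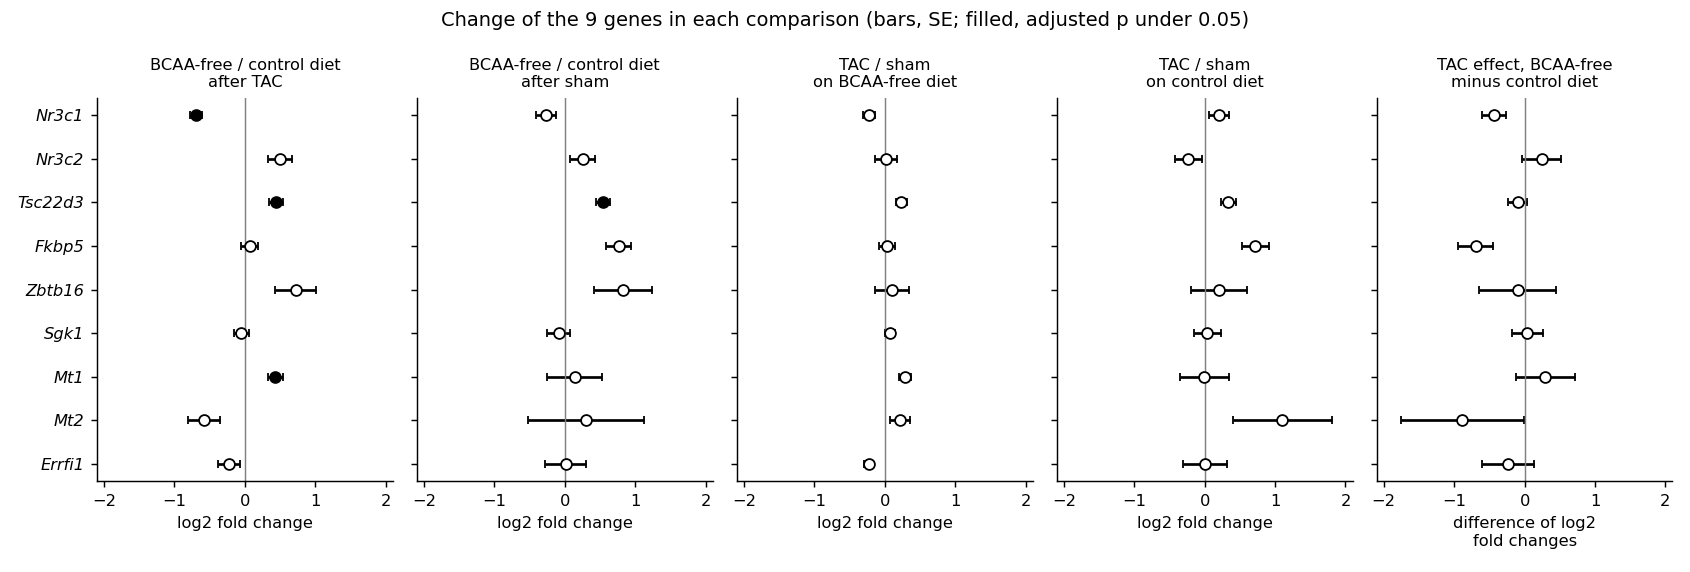
Log2 fold change of each of the 9 genes (rows) in the 4 comparisons and the interaction (columns); bars are SE, and filled points were called. After TAC, Nr3c1 lies at -0.69 and Tsc22d3 and Mt1 at 0.44 and 0.43 for the BCAA-free over the control diet; after sham surgery Tsc22d3 alone is filled.

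Sgk1 passed the test in no comparison. Of the 7 members whose promoter windows were searched, it is the one with a complete glucocorticoid response element in a window. Sgk1 (ENSMUSG00000019970, chromosome 10, 21882184 to 21999903, plus strand) encodes a serine/threonine kinase induced by both corticosteroid receptors, which acts on ion channels and cell survival. Promoter windows of 250 bases before to 50 bases after a start site were taken from RefSeq (GRCm38.p6) for 7 of the 9 members, 15 windows in all, of which Sgk1 has 6. Nr3c1 and Zbtb16 were not searched, and nor was any sequence outside these windows. The 15 windows were searched on both strands for the palindromic element, AGAACA followed after any 3 bases by TGTTCT, which overlaps by construction with its single arm AGAACA. The whole element was found in 3 of 32851 promoter windows of that length (0.00913%), and 1 of these is the Sgk1 window chr10:21993640-21993939, plus strand, where the match starts 189 bases before the start site. The single arm was found in 19% of windows. The window is shown 5′ to 3′, with the element in capitals.
Sgk1: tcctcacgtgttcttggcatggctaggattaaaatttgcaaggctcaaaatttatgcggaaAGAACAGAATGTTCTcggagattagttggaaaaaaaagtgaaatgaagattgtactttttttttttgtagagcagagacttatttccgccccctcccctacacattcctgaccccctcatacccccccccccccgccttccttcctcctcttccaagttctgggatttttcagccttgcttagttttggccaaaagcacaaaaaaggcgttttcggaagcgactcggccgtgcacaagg

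Sgk1 had 153, 151 and 148 CPM in BCAA-free TAC hearts and 181, 133 and 157 CPM in control diet TAC hearts. In sham hearts it had 148, 138 and 141 CPM on the BCAA-free diet and 117, 153 and 193 CPM on the control diet. The BCAA-free libraries lay close together, inside the range of the control diet libraries. The log2 fold change for the diet was -0.05 ± 0.11 after TAC (adjusted p = 0.758) and -0.09 ± 0.16 after sham surgery (adjusted p = 0.83). It was 0.08 ± 0.07 for TAC on the BCAA-free diet (adjusted p = 0.512) and 0.04 ± 0.20 for TAC on the control diet (adjusted p = 0.916). Leaving out control diet sham replicate 3, the diet after sham surgery gave 0.10 (adjusted p = 0.667), of the other sign, and TAC on the control diet 0.235 (adjusted p = 0.362). A match in a promoter describes the sequence and says nothing of binding in these hearts.

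The metallothioneins, small cysteine-rich proteins that bind zinc and copper, are induced by glucocorticoids and, through the metal-sensing factor MTF1, by zinc. Mt1 (ENSMUSG00000031765, chromosome 8, 94179082 to 94180327, plus strand) and Mt2 (ENSMUSG00000031762, chromosome 8, 94172664 to 94173568, plus strand) are neighbours and were the most abundant members per length of exon, at 99.7 and 35.1 CPM per kb. Their promoter windows were searched on both strands for the core of the metal response element, TGCACNC or TGCGCNC, which is found in 25.7% of all windows. Mt1 has 3 matches and Mt2 has 4; 3 or more stand in 1.97% of windows and 4 or more in 0.517%. Both windows, chr8:94178839-94179138 for Mt1 and chr8:94172368-94172667 for Mt2, plus strand of GRCm38.p6 from RefSeq, are shown because the genes share this element and differ in their values; capitals mark the cores on either strand.
Mt1: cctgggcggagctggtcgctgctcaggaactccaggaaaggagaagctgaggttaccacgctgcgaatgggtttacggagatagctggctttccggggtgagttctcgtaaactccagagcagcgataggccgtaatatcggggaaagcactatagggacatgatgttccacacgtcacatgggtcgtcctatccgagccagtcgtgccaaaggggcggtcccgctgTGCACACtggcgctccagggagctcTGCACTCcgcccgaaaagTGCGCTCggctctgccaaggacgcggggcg
Mt2: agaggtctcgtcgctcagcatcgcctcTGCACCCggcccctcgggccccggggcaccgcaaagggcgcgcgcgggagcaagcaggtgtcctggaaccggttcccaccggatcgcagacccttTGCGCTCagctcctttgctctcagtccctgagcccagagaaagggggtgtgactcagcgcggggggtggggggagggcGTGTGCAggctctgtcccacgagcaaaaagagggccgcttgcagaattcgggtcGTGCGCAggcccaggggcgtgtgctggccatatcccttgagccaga

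Mt1 was higher on the BCAA-free diet after TAC. It had 143, 135 and 164 CPM in BCAA-free TAC hearts against 108, 121 and 98.2 CPM in control diet TAC hearts, with no overlap. In log2 terms Mt1 rose by 0.43 ± 0.10 (adjusted p = 0.0127). The call was lost with GC content and length trends removed (0.28, adjusted p = 0.0623), with scaling to library totals alone (0.30, adjusted p = 0.0613), with edgeR on all 12 libraries (0.43, adjusted p = 0.293), without control diet TAC replicate 3 (0.36, adjusted p = 0.0533) and without BCAA-free TAC replicate 3 (0.35, adjusted p = 0.0536). In sham hearts Mt1 had 126, 114 and 119 CPM on the BCAA-free diet and 70, 92.6 and 199 CPM on the control diet. The 3 BCAA-free libraries lay inside the control diet range, and the log2 fold change was 0.14 ± 0.39 (adjusted p = 0.892). Without control diet sham replicate 3 it was 0.59 and passed (adjusted p = 0.0239). It did not pass without control diet sham replicate 1 (-0.18, adjusted p = 0.8) or replicate 2 (0.014, adjusted p = 0.993). TAC against sham gave 0.29 ± 0.08 on the BCAA-free diet, with no overlap and an adjusted p of 0.0566, and -0.01 ± 0.35 on the control diet (adjusted p = 0.992), where it was 0.45 without control diet sham replicate 3 (adjusted p = 0.0986). The BCAA-free value passed with DESeq2 (adjusted p = 0.0232), with the replicate block (adjusted p = 0.0346) and over genes with a mean of at least 100 (adjusted p = 0.0492). It did not pass with GC content and length trends removed (0.18, adjusted p = 0.292) or with edgeR on all 12 libraries (adjusted p = 0.639). With any 1 library left out it did not pass either (adjusted p = 0.0585 to 0.231).

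Mt2 did not follow Mt1 after TAC. It had 17.3, 17.2 and 21.7 CPM in BCAA-free TAC hearts and 25.3, 40.1 and 21.3 CPM in control diet TAC hearts. The groups overlapped by a narrow margin, and the log2 fold change of -0.58 ± 0.22 did not pass (adjusted p = 0.0813), though it did with DESeq2 (-0.62, adjusted p = 0.0128), with GC content and length trends removed (-0.85, adjusted p = 0.0335) and without control diet TAC replicate 3 (-0.77, adjusted p = 0.0319). In sham hearts Mt2 had 19.7, 14.8 and 13.9 CPM on the BCAA-free diet and 6.02, 8.62 and 41.5 CPM on the control diet. The control diet libraries lay below and above all BCAA-free ones. The log2 fold change was 0.30 ± 0.82 (adjusted p = 0.889). It was -0.25 without control diet sham replicate 1 (adjusted p = 0.907) and 0.002 without replicate 2 (adjusted p = 0.999). With control diet sham replicate 3 left out it was 1.16 and passed (adjusted p = 0.0154). Without that library the interaction of Mt2 passed too, at -1.74 (adjusted p = 0.0205), against -0.88 ± 0.87 with it (adjusted p = 0.54). TAC against sham gave 0.22 ± 0.14 on the BCAA-free diet (adjusted p = 0.37) and 1.10 ± 0.71 on the control diet (adjusted p = 0.354). The control diet value was 1.96 without control diet sham replicate 3 (adjusted p = 0.0553), 0.55 without control diet sham replicate 1 (adjusted p = 0.612) and 0.62 with edgeR (adjusted p = 0.633), and passed in none of these.

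The Mt1 to Mt2 ratio within a library, also chosen after the values had been seen and given with no test, was 8.25, 7.85 and 7.59 in BCAA-free TAC hearts and 4.27, 3.02 and 4.6 in control diet TAC hearts. In sham hearts it was 6.42, 7.74 and 8.52 on the BCAA-free diet and 11.6, 10.7 and 4.78 on the control diet. The ratio was lower in all 3 control diet TAC libraries than in any other library, with control diet sham replicate 3 next. Read in the sense direction, no word of 50 bases was shared between the transcripts of either gene and those of any other gene. The reverse complement was not searched, so overlap with a gene on the other strand is not covered. The exons of Mt2 overlap those of the antisense gene Gm45774, whose level was 2.37 to 3.5 CPM in BCAA-free TAC, 3.99 to 7.5 in control diet TAC, 2.07 to 3.55 in BCAA-free sham and 0.76 to 8.11 CPM in control diet sham hearts. The sources do not state that strand was used in counting, so reads of the 2 genes cannot be told apart.

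Errfi1 was tight on the BCAA-free diet and spread on the control diet. Errfi1 (ENSMUSG00000028967, chromosome 4, 150853919 to 150868892, plus strand) encodes MIG6, a feedback inhibitor of the epidermal growth factor receptor that glucocorticoids and growth factors both induce. It had 64.2, 65.7 and 67.7 CPM in BCAA-free TAC hearts and 96.9, 80.1 and 58.5 CPM in control diet TAC hearts. In sham hearts it had 76.1, 78.3 and 76.8 CPM on the BCAA-free diet and 50.4, 74 and 120 CPM on the control diet. On either operation the BCAA-free libraries lay inside the control diet range. The log2 fold change for the diet was -0.22 ± 0.16 after TAC (adjusted p = 0.309) and 0.01 ± 0.28 after sham surgery (adjusted p = 0.989). After TAC it was -0.42 without control diet TAC replicate 3 (adjusted p = 0.0281) but -0.055 without control diet TAC replicate 1 (adjusted p = 0.764). With any other library left out it did not pass. All 3 BCAA-free TAC libraries were below all 3 BCAA-free sham libraries, at -0.23 ± 0.07 (adjusted p = 0.0599), and TAC on the control diet gave 0.00 ± 0.31 (adjusted p = 0.997). Without control diet sham replicate 3 the diet after sham surgery gave 0.35 (adjusted p = 0.231) and TAC on the control diet 0.34 (adjusted p = 0.4). TAC on the BCAA-free diet passed with DESeq2 (adjusted p = 0.0454) and over genes with a mean of at least 100 (adjusted p = 0.0452). It did not pass with edgeR on all 12 libraries (adjusted p = 0.687) or with any 1 library left out (adjusted p = 0.0769 to 0.18).

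Per length of exon the 9 genes ranked Mt1, Mt2, Sgk1 at 30.8, Zbtb16 at 25.6, Errfi1 at 21.1, Tsc22d3 at 19, Nr3c1 at 9.14, Fkbp5 at 5.68 and Nr3c2 at 3.06 CPM per kb, as means over the 12 libraries. Nr3c2 stood near the middle of all genes of the tables, at percentile 51.1, and Mt1 at percentile 97.5.

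A list of 24 further genes that glucocorticoids induce was read beside the members; like the members it was drawn up with earlier results of these data known. After TAC, 9 of the 24 were called higher and 2 lower on the BCAA-free diet, beside 16.5% and 17.7% of all genes. That is 11 of 24 called, where 34.2% of all genes were called. The count was 7 without BCAA-free TAC replicate 1 or without BCAA-free TAC replicate 3. The median log2 fold change of the 24 was 0.28 beside 0.00 over all genes. The 4 with the smallest p were Ptgds, a prostaglandin D synthase gene (1.42 ± 0.17, adjusted p = 0.00138), Hif3a, a hypoxia-inducible factor subunit gene (1.35 ± 0.19, adjusted p = 0.00183), Arrdc2, an arrestin domain gene (1.64 ± 0.26, adjusted p = 0.00518), and the cell cycle inhibitor gene Cdkn1a, which fell (-0.99 ± 0.20, adjusted p = 0.00931). Ptgds had 1060, 748 and 745 CPM in BCAA-free TAC hearts and 366, 258 and 328 CPM in control diet TAC hearts. The lowest BCAA-free library was above the highest control diet library.

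After sham surgery 0 of the 24 were called for the diet with limma (0 or 1 with 1 library left out), beside 0.624% of all genes. Of the 24, 8 had an unadjusted p under 0.05. By rank of p, between 2.1% and 21.9% of all genes had such a p. DESeq2 called 2, Hif3a and Ptgds, both higher. The median was 0.05. Ptgds had the smallest p, at 0.73 ± 0.17 (adjusted p = 0.0769), followed by Glul, the glutamine synthetase gene, at 0.41 ± 0.12 (adjusted p = 0.144). TAC on the BCAA-free diet called 1 of the 24, beside 6.23% of all genes. This was Pik3r1, a regulatory subunit gene of phosphoinositide 3-kinase, which fell (-0.35 ± 0.09, adjusted p = 0.0384). Its call was lost in 4 of 6 fits with 1 library left out. TAC on the control diet called 0 with limma, beside 4.04% of all genes. Of the 24, 4 had an unadjusted p under 0.05, where by rank of p at least 13.7% of all genes did. DESeq2 called 1, Pdk4. The median was -0.15. The interaction called 0 with limma, beside 8.65% of all genes. Of the 24, 4 had an unadjusted p under 0.05, where by rank of p at least 20.5% of all genes did. DESeq2 called 1, Foxo1. The shares of all genes called by DESeq2 are not given here.

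**Figure D4:**
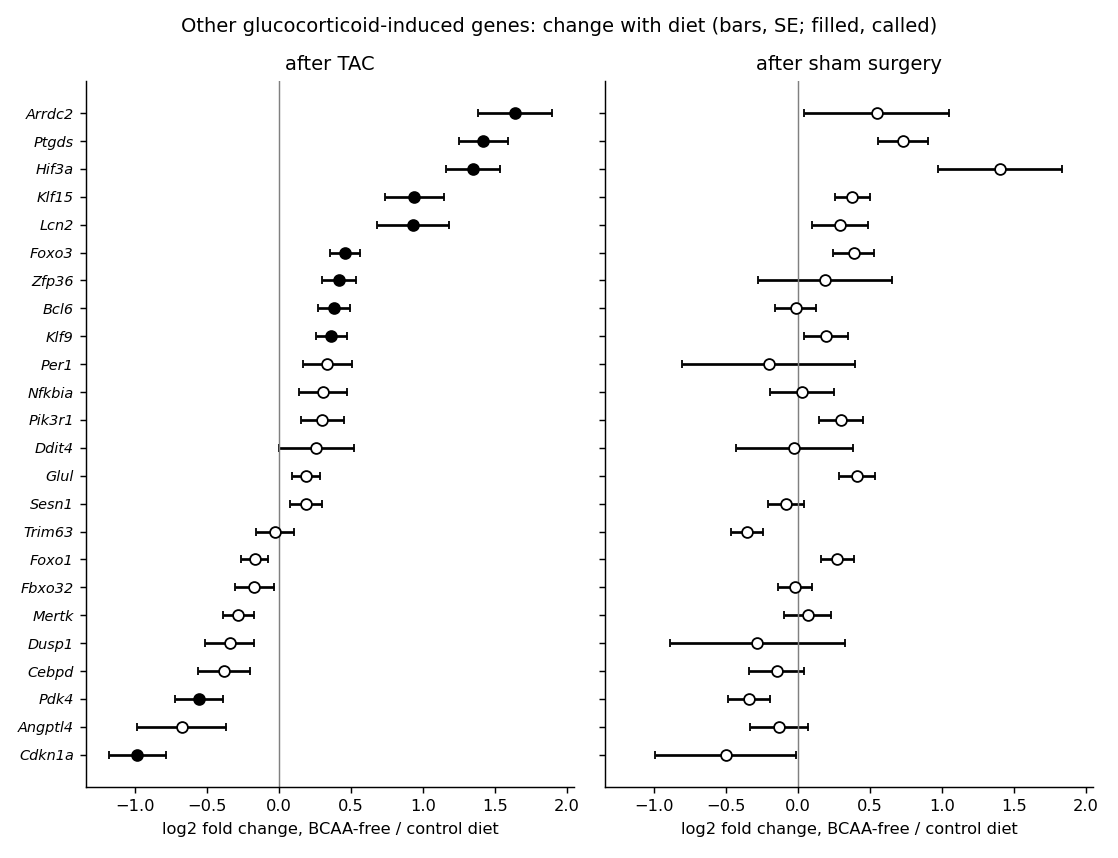
Log2 fold change of the BCAA-free over the control diet for 24 other glucocorticoid-induced genes (rows, ordered by their value after TAC), after TAC (left) and after sham surgery (right); bars are SE and filled points were called. After TAC 9 genes are filled to the right of 0 and 2, Pdk4 and Cdkn1a, to the left; after sham surgery none is filled.

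Genes around the receptor and its targets were counted in the same way. Their counts stand beside the shares of all genes called, which were 34.2% for the diet after TAC (16.5% higher and 17.7% lower), 0.624% for the diet after sham surgery, 6.23% for TAC on the BCAA-free diet, 4.04% for TAC on the control diet and 8.65% for the interaction. Of 13 receptor chaperone and coregulator genes 2 were called for the diet after TAC, a smaller share than over all genes, both lower: Hsp90aa1, the inducible HSP90 that holds the receptor ready for hormone (-0.86 ± 0.14, adjusted p = 0.00385), and the corepressor gene Nrip1 (-0.49 ± 0.15, adjusted p = 0.0365). On the BCAA-free diet 2 of the 13 were lower after TAC than after sham surgery, the coregulator genes Ncoa2 and Ncor1 (-0.44 ± 0.09 and -0.32 ± 0.08, adjusted p = 0.0206 and 0.0407). The interaction was called for Fkbp4, whose product FKBP52 raises the hormone affinity of the receptor that FKBP51 lowers (0.76 ± 0.22, adjusted p = 0.0462). Fkbp4 had 366, 360 and 391 CPM in BCAA-free TAC, 346, 213 and 348 in control diet TAC, 321, 348 and 385 in BCAA-free sham and 448, 460 and 501 CPM in control diet sham hearts, so its control diet sham libraries were the highest where those of Fkbp5 were the lowest. Of 5 measured genes of corticosteroid metabolism and export 1 was called, Abcb1b, a steroid-exporting pump gene, higher on the BCAA-free diet after TAC (0.60 ± 0.13, adjusted p = 0.00923).

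Of 7 SGK1 activators and substrates 3 were called for the diet after TAC, near the 34.2% of all genes, and 4 were not. Pdpk1 and Rictor, whose products phosphorylate or help to phosphorylate SGK1, were lower (-0.44 ± 0.07 and -0.53 ± 0.10, adjusted p = 0.00289 and 0.00626), and Ndrg2, whose product SGK1 phosphorylates, was higher (0.43 ± 0.09, adjusted p = 0.00736). Pdpk1 and Rictor were also lower after TAC than after sham surgery on the BCAA-free diet (-0.31 ± 0.08 and -0.41 ± 0.11, adjusted p = 0.038 and 0.048). Of 8 measured ErbB receptor and ligand genes 4 were called lower and none higher for the diet after TAC, where 17.7% of all genes were called lower and 16.5% higher: Egfr, the receptor that MIG6 restrains (-1.25 ± 0.15, adjusted p = 0.00115), and the ligand genes Btc (-0.94), Ereg (-3.25) and Hbegf (-1.15). Ereg was missing from the 7 ErbB genes tested in the interaction, and from the 7 tested between BCAA-free TAC and BCAA-free sham hearts. Its level is not given here, and the size of its fold change may rest on low values in BCAA-free TAC hearts. Egfr had 6.93, 5.44 and 6.45 CPM in BCAA-free TAC hearts, against 13.2, 18.4 and 13.6 CPM in control diet TAC hearts. It was the one ErbB gene called for the interaction (-1.18 ± 0.20, adjusted p = 0.0101), with TAC against sham at -0.50 ± 0.13 on the BCAA-free diet (adjusted p = 0.0422) and 0.68 ± 0.16 on the control diet (adjusted p = 0.0492).

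Of 7 measured zinc and metal response genes 2 were called higher and 3 lower on the BCAA-free diet after TAC, beside 16.5% and 17.7% of all genes. The zinc importer genes Slc39a10 (-0.67 ± 0.12, adjusted p = 0.00403) and Slc39a14 (-0.34 ± 0.07, adjusted p = 0.0066) and the heme oxygenase gene Hmox1 (-0.69 ± 0.15, adjusted p = 0.0086) fell, while the importer gene Slc39a8 rose (1.11 ± 0.29, adjusted p = 0.0181). The remaining rise was Mt3, another metallothionein gene, at 1.37 ± 0.35 CPM in BCAA-free TAC hearts and 0.63 ± 0.22 CPM in control diet TAC hearts (SD, n = 3 each), outside the naming rule and given because it belongs to the same family. The interaction was called for Slc39a10 alone (-0.81 ± 0.19, adjusted p = 0.024).

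Clock genes are given because glucocorticoid secretion is daily and several targets are shared. Of 16 clock genes 8 were called higher and 3 lower on the BCAA-free diet after TAC, beside 16.5% and 17.7% of all genes, with a median log2 fold change of 0.67. Those with the smallest p were Dbp (2.70 ± 0.11, adjusted p = 1.22e-05), Arntl (-2.38 ± 0.13, adjusted p = 4.9e-05), Per2 (1.85 ± 0.11, adjusted p = 8.67e-05) and Per3 (1.73 ± 0.11, adjusted p = 0.000133). After sham surgery 1 of 16 was called for the diet, Per2, higher (2.14 ± 0.32, adjusted p = 0.0332). TAC on the control diet called Per2 higher (1.19 ± 0.26, adjusted p = 0.0462) and Arntl lower (-0.51 ± 0.10, adjusted p = 0.042), and TAC on the BCAA-free diet called Bhlhe40 higher and Clock lower. Over all 7 pathway lists, 26 of 37 calls for the diet after TAC were made in each of the 6 fits with 1 library left out. Btc, Slc39a8, Mt3, Ereg, Hbegf and Nrip1 lost theirs in 1 to 4 of these fits and Pdk4 in 5. Of the induced genes called higher, Lcn2 and Bcl6 lost theirs in 3 fits and Zfp36 and Klf9 in 4. Of the calls in the other comparisons and the interaction, that of Clock (TAC, BCAA-free diet) and that of Egfr in the interaction were made in every such fit. For TAC on the BCAA-free diet Pdpk1 lost its call in 6 of 6 fits, Ncor1, Egfr and Bhlhe40 in 5, Rictor and Pik3r1 in 4 and Ncoa2 in 3. For TAC on the control diet Arntl, Per2 and Egfr each lost theirs in 5 of 6, and Per2 did in 3 of 6 for the diet after sham surgery. In the interaction Npas2 lost its call in 10 of 12 fits, Fkbp4 in 9 and Slc39a10 in 5. Time of collection is not given, and its part in the levels of the 9 genes was not tested.

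For each member the 3 genes whose log2 levels had the highest Pearson r with it over the 12 libraries were taken from 10733 genes, as a description that the differences between the 4 groups enter. Those of Nr3c1 were Cbl, Vcl and Edem3 (r = 0.969, 0.969 and 0.965), and 141 genes had an r over 0.9 with it. Nr3c2 was most like Rps6ka5, Lgr6 and Kcnj5 (0.950, 0.937 and 0.934), with 12 such genes. Tsc22d3 was most like Lims2, the clock gene Per2 and Ephx1 (0.933, 0.916 and 0.903), with 4 such genes. Per2 had 41.6, 32.9 and 32.8 CPM in BCAA-free TAC, 10, 10.4 and 9.26 in control diet TAC, 18.4, 27.2 and 13.7 in BCAA-free sham and 2.81, 4.46 and 6.27 CPM in control diet sham hearts, the same order of group means as Tsc22d3.

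Fkbp5 was most like Fam124a, Lrrc8a and Mcf2l (0.927, 0.919 and 0.915), and Zbtb16 like Rasgrp2, Wbp1l and Ocel1 (0.883, 0.866 and 0.859). Mt1 was most like Snx17, Pqbp1 and Rpl13a (0.955, 0.928 and 0.912), and Mt2 like Pnp, Taf13 and Olfr1033 (0.945, 0.916 and 0.910), so no gene was among the 3 nearest of both metallothioneins. Sgk1 had the weakest likeness, to Ctla2b, Sox17 and Ube2g2 (0.826, 0.817 and 0.795). Errfi1 was most like Gfpt2, the immediate early gene Fosb and Zbtb21 (0.893, 0.881 and 0.831). Fosb had 24.6 CPM in control diet sham replicate 3 and between 0.76 and 5.73 CPM in the 11 other libraries. Without that library the r of Errfi1 with Fosb was 0.768, and that of Sgk1 with Ctla2b 0.706, over 11 libraries, while that of Tsc22d3 with Per2 was 0.914.

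**Figure D5:**
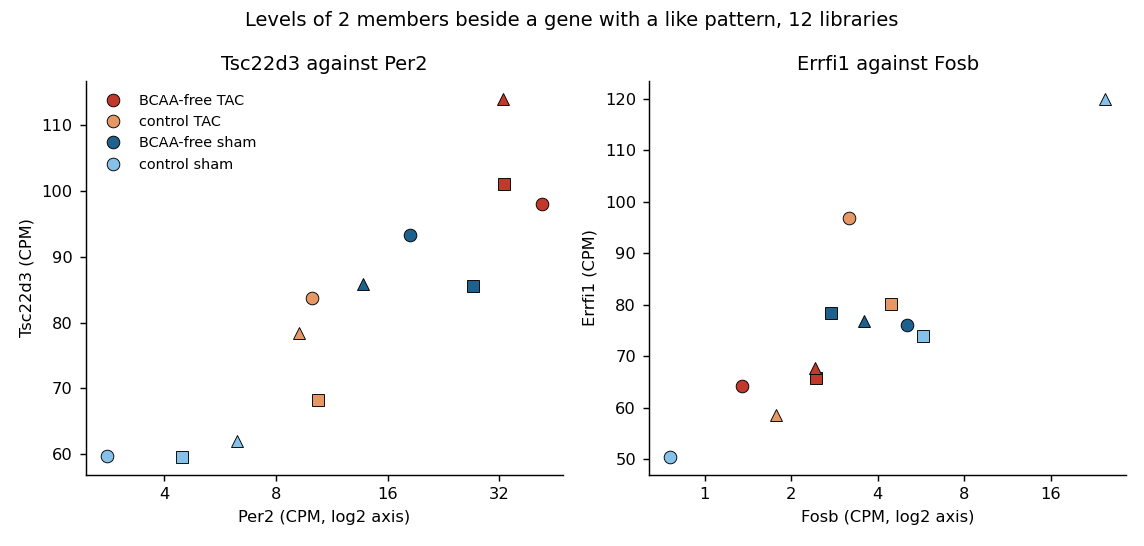
Levels in CPM of Tsc22d3 against Per2 (left) and of Errfi1 against Fosb (right) in the 12 libraries; horizontal axes are log2 axes, colours are groups, and circles, squares and triangles are replicates 1, 2 and 3. The control diet sham libraries lie lowest for Tsc22d3 and Per2 (59.6 to 62 CPM and 2.81 to 6.27 CPM), and control diet sham replicate 3 lies apart from the others for Errfi1 and Fosb.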

How the data were processed

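The submitters' processing notes name STAR 2.5.2b, Trimmomatic 0.36, Subread 1.5.2 and DESeq2 and the builds mm10 and GRCm38, without saying what each did. The deposited signal is a gene's normalized count in a table of 2 groups; dividing it by the smallest step of its library gave whole reads for 100% of values (within 0.01 of a whole number). The authors' log2 fold changes and p-values stand in the same tables, per the file headers, and were quoted where named. The 9 members and all gene lists were chosen with earlier results of these data known. Beyond the members, the text gives fold changes for at most 4 called genes of each pathway list in a comparison, by smallest p. Where a list had no call, its 2 genes with the smallest p were named only for the induced list after sham surgery. Some other genes were named as DESeq2 calls, as calls lost with 1 library left out or as cell type markers. The 3 genes most like each member were also named.

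Each comparison was fitted with limma 3.58.1 (R 4.3.3, statmod 1.5.0; trend, robust) on log2 of the value plus 1, over genes with a mean of at least 10; fold changes of low genes are understated on this scale. The interaction used the 12 libraries of both TAC tables. CPM were scaled by TMM in edgeR 4.0.16. The alternatives were a pseudocount of 10, no filter, a mean of at least 100, TMM-rescaled values, library totals, the replicate number as a block, trends over GC content and length removed, edgeR and DESeq2 1.42.0 on recovered reads, and each library left out. The pipeline was tested on simulated counts. Positions came from GENCODE M21 (GRCm38).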

Additional observations from a re-analysis of the deposited data

How the results depend on the processing

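Calls over all genes moved with the processing. Alternatives that kept every library gave 3959 to 5591 for the diet after TAC and 52 to 531 for the diet after sham surgery. They gave 62 to 1490 for TAC on the BCAA-free diet, 477 to 3046 for TAC on the control diet and 643 to 2229 for the interaction. Beside these, the number of the 9 genes called moved as follows. For the diet after TAC it was 3, and 2 with library totals alone and with edgeR on all 12 libraries, 4 with the replicate block and with GC content and length trends removed, and 5 with DESeq2; leaving out 1 library gave 3 to 5. For the diet after sham surgery it was 1, and 2 with DESeq2 and with edgeR on all 12 libraries; leaving out 1 library gave 0 to 5. For TAC on the BCAA-free diet it was 0, with 2 at a mean of at least 100, 1 with the replicate block and 2 with DESeq2; for TAC on the control diet it was 0, with 2 under library totals alone, 1 with the replicate block, 2 with DESeq2, 2 with edgeR on all 12 libraries and 0 to 1 with 1 library left out. The interaction went to 1 with library totals alone and to 0 to 2 with 1 library left out. Replicate numbers did not pair the samples, since deviations of same-numbered libraries correlated at -0.18 to 0.08; under the replicate block Zbtb16 passed for the diet after TAC (adjusted p = 0.0155). The causes were not tested.

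Of 45 results for single genes, 18 changed sign under an alternative, and 0 of those 66 values were called. On the control diet TAC against sham went to -0.031 for Sgk1, 0.095 for Mt1 and -0.062 for Errfi1 with GC content and length trends removed, with or without the replicate block; Mt1 went to 0.00 with TMM-rescaled values and 0.14 with library totals, and Errfi1 to -0.060, -0.065 and -0.052 with edgeR, DESeq2 and edgeR on 12 libraries. On the BCAA-free diet GC content and length trends removed gave 0.020 for Nr3c1 and -0.003 for Fkbp5, and library totals -0.009 for Nr3c2. For the diet after sham surgery edgeR, DESeq2 and edgeR on 12 libraries gave -0.011, -0.013 and -0.004 for Mt1, -0.20, -0.23 and -0.19 for Mt2 and -0.083, -0.084 and -0.078 for Errfi1, which was -0.004 with GC content and length trends removed. For the diet after TAC library totals gave -0.062 for Fkbp5 and GC content and length trends removed 0.016 for Sgk1; for the interaction they gave -0.13 for Sgk1 and 0.023 for Zbtb16. Leaving out 1 library gave, for TAC on the control diet, -0.18 to 0.53 for Zbtb16, -0.15 to 0.23 for Sgk1, -0.33 to 0.45 for Mt1 and -0.30 to 0.34 for Errfi1. For TAC on the BCAA-free diet it gave -0.079 to 0.16 for Nr3c2, -0.12 to 0.14 for Fkbp5 and -0.024 to 0.35 for Zbtb16. For the diet after sham surgery it gave -0.28 to 0.10 for Sgk1, -0.18 to 0.59 for Mt1, -0.25 to 1.16 for Mt2 and -0.29 to 0.35 for Errfi1. For the diet after TAC it gave -0.074 to 0.18 for Fkbp5 and -0.17 to 0.060 for Sgk1. For the interaction it gave -0.43 to 0.28 for Zbtb16, -0.16 to 0.23 for Sgk1, -0.15 to 0.62 for Mt1 and -0.57 to 0.074 for Errfi1.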
